A study of Homo sapiens with 8 samples.

Results

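A set of 3936 transcripts, 10.3% of the 38314 listed, reached a reactivity of exactly 7 at their most reactive position both in control HEK293T cells and after knockdown of TDP-43. They were chosen by that maximum in both deposited tables, which hold no value above 7. Control cells (genotype WT) and TDP-43 knockdown cells of this human embryonic kidney line were exposed for 15 min at 37 °C to 100 mM NAI or, as the unprobed background, to 5% DMSO. These 4 groups of 2 replicates, 8 libraries of poly(A) RNA in all, are deposited as 1 combined summary per condition and transcript. How the knockdown was done, for how long and in how many cell clones is not given in the sources used here.

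NAI acylates the 2'-hydroxyl of nucleotides that are free to move, so unpaired, flexible bases react and bases held in a helix tend not to. In a folded G-quadruplex the last guanine of a G tract reacts more than the guanines before it. Reverse transcriptase stops at the adduct, and the stops, set against the untreated RNA, give each nucleotide a reactivity. SHALiPE-seq reads these stops with the enzyme working in lithium, a salt that does not stabilise G-quadruplexes, so that the adducts and not the folds halt it. TDP-43 is an RNA-binding protein with a preference for UG-rich sequence, and the series title concerns its binding to RNA G-quadruplexes and its part in mRNA stability and translation. A transcript whose signal sits on a few positions has a high Gini index, a measure of inequality that is 0 when all positions react alike and approaches 1 when few positions hold all the reactivity.

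The value of 7 behaved as a limit in both tables. In control, 343 transcripts had a maximum from 6.5 to just under 7 and 4195 had exactly 7. In knockdown these numbers were 460 and 4820. The transcripts at 7 in both conditions made up 93.8% of those at 7 in control and 81.7% of those at 7 in knockdown. A position that would exceed 7 cannot be told apart from one that just reaches it. The transcripts could not be named by gene, because the gene table used here pairs none of the identifiers with a symbol. With 1 combined value per condition there is no replicate spread and with no read counts the depth is unknown, so every value below is a description without a test. All of average, standard deviation (SD) and Gini index are computed from the same reactivities as the maximum that chose the transcripts.

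The transcripts at the ceiling were of ordinary average reactivity but very uneven. Their control average had a median of 0.201, with the middle 50% from 0.181 to 0.215, against a median of 0.189 in the 33235 transcripts that stayed below 7 in both conditions. Their control SD was 1.02 in the median, against 0.376 below the ceiling. Their median control Gini index was 0.964 (quartiles 0.960 and 0.968), against 0.815 below the ceiling. In knockdown the median average was 0.161 at the ceiling and 0.199 below it, the median SD was 0.906 and 0.432, and the median Gini index was 0.971 and 0.827. To give a control average and SD such as theirs, at least 3.97% of the positions of the median transcript had to carry reactivity, and 3.24% in knockdown. Below the ceiling these least shares were 20.1% and 18.8%.

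**Figure D1:**
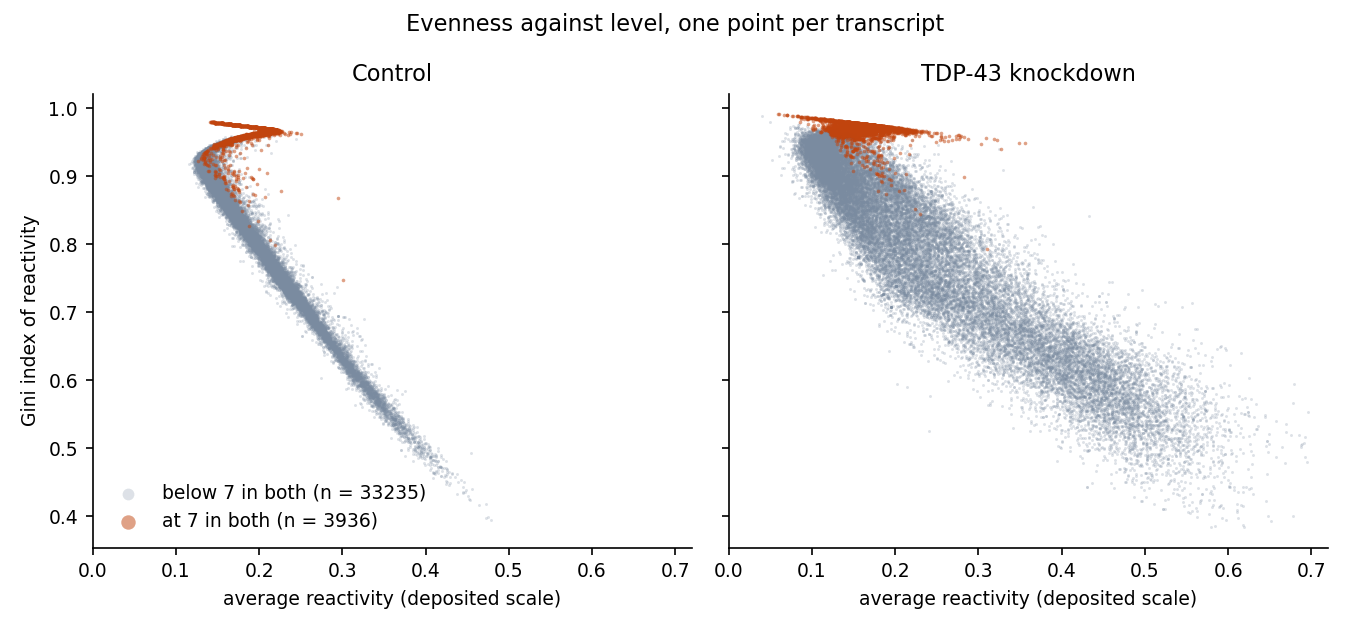
Gini index against average reactivity on the deposited scale, 1 point per transcript, in control (left) and knockdown (right), with the 3936 transcripts at 7 in both conditions over the 33235 below 7 in both. In control the transcripts at the ceiling lie on an arm that runs to averages of about 0.22 at a Gini index near 0.967 and then turns back to lower averages at higher Gini indices, and in knockdown they form a flat band above the other transcripts.

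At similar level the transcripts at the ceiling were more uneven in each of 20 bins of control average. The bins held equal numbers of them, and the median of the others in the same bin was subtracted. Weighted by the number at the ceiling, the Gini index was higher by 0.159, with bins between 0.035 and 0.243. The SD was higher by 0.569, with bins between 0.191 and 0.777. The lowest and the highest bin are wide, with median averages of 0.147 against 0.141 and of 0.221 against 0.243. In the 18 inner bins alone the Gini index was higher by 0.162, with bins between 0.084 and 0.207, and the SD by 0.579. In all, 92.8% of the transcripts at the ceiling had a Gini index above the 95th percentile of the others in their bin, and 73.4% lay above the highest of them. For the SD these shares were 95.2% and 74.9%. Matched on knockdown average and compared on knockdown values, the Gini index was higher by 0.105 and the SD by 0.495, again in 20 of 20 bins.

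The sense in which evenness varied with level also differed. In the 18 inner bins, where both sets had nearly the same average, the median control Gini index of the transcripts at the ceiling ran up from 0.952 at the lowest level to 0.967 at the highest. That of the others ran down from 0.868 to 0.761 over the same levels. The median SD ran from 0.697 to 1.14 at the ceiling and from 0.391 to 0.370 below it. Over all transcripts of each set the Spearman correlation of control average with Gini index was 0.471 at the ceiling (n = 3936) and -0.965 below it (n = 33235). In knockdown the corresponding correlations were -0.156 and -0.917, so the upward course at the ceiling seen in control was not seen there. The points of each correlation share their libraries and their scaling, and isoforms of 1 gene share reads. Low bins mixed transcripts of unlike SD, and in the lowest inner bin the upper quartile at the ceiling was 1.03 at a median of 0.697.

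**Figure D2:**
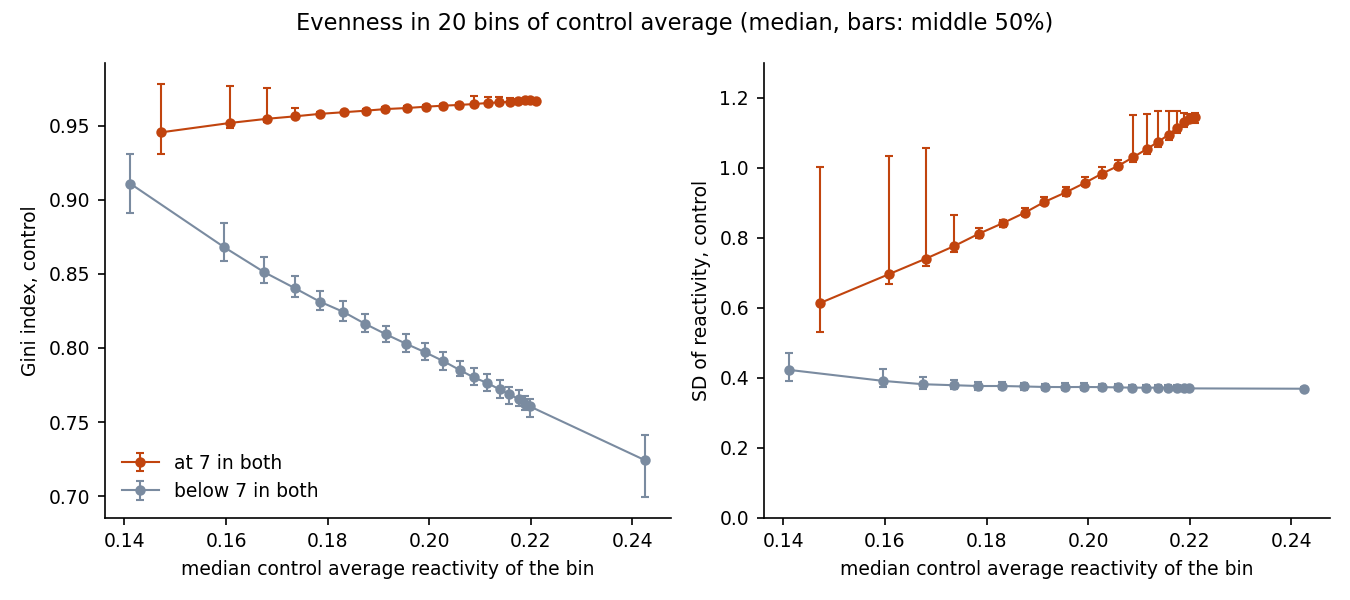
Median control Gini index (left) and SD (right) in 20 bins of control average reactivity that hold equal numbers of transcripts at 7 in both conditions, with bars for the middle 50% of the bin. The Gini index of the transcripts at the ceiling goes up with level while that of the others goes down, and their SD is higher in every bin.

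On the recovered numbers of positions, a single position at 7 made up 1.47% of the summed reactivity of the median transcript at the ceiling in control and 1.82% in knockdown. With the highest position taken off every transcript, at the ceiling or not, the median control Gini index was 0.965 and the level-matched difference was 0.158. Length differed between the sets, with a median of 2460 positions at the ceiling and 905 below it. Within bins of level and length together the difference in the Gini index was 0.157 and that in the SD 0.568.

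The reactivity of these transcripts sat at higher values than that of the others. The reactivity-weighted mean, the sum of squared reactivities divided by their sum, gives the reactivity at which a unit of signal typically sits. At the ceiling its control median was 5.29 and its knockdown median 5.25, against 0.937 and 1.08 below. It was at least 5 in 57.4% of the transcripts at the ceiling in control, and in none of the 33235 below it. A weighted mean cannot exceed the transcript's own maximum, by which the sets were chosen. Below the ceiling the 95th percentile of the control maximum was 4.66, so most of those transcripts could not reach 5. That contrast is therefore largely set by the choice. As a share of the transcript's own maximum in control it was 75.6% at the ceiling and 44.3% below it. The maximum at the ceiling cannot exceed 7, so this share does not remove the effect of the limit. It was 48.0% in the 63 transcripts with maxima from 6.5 to under 7 in both conditions and 49.8% in the 259 at 7 in control alone. This weighted mean sets a least share of the signal that must sit above 3.5, the midpoint between 0 and the ceiling. For the median transcript at the ceiling that share was 51.2% in control and 49.99% in knockdown, and the lower quartiles were 20.5% and 19.6%. At most 5.74% and 4.60% of its positions could hold such values. The number of positions at 7 could not be read directly. On the smallest number of positions that fits, summed reactivity and its squares allow at most 45 in the median transcript in control and 38 in knockdown. These counts are too low where the true number of positions is larger. As shares of positions the medians were at most 2.19% and 1.70%.

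**Figure D3:**
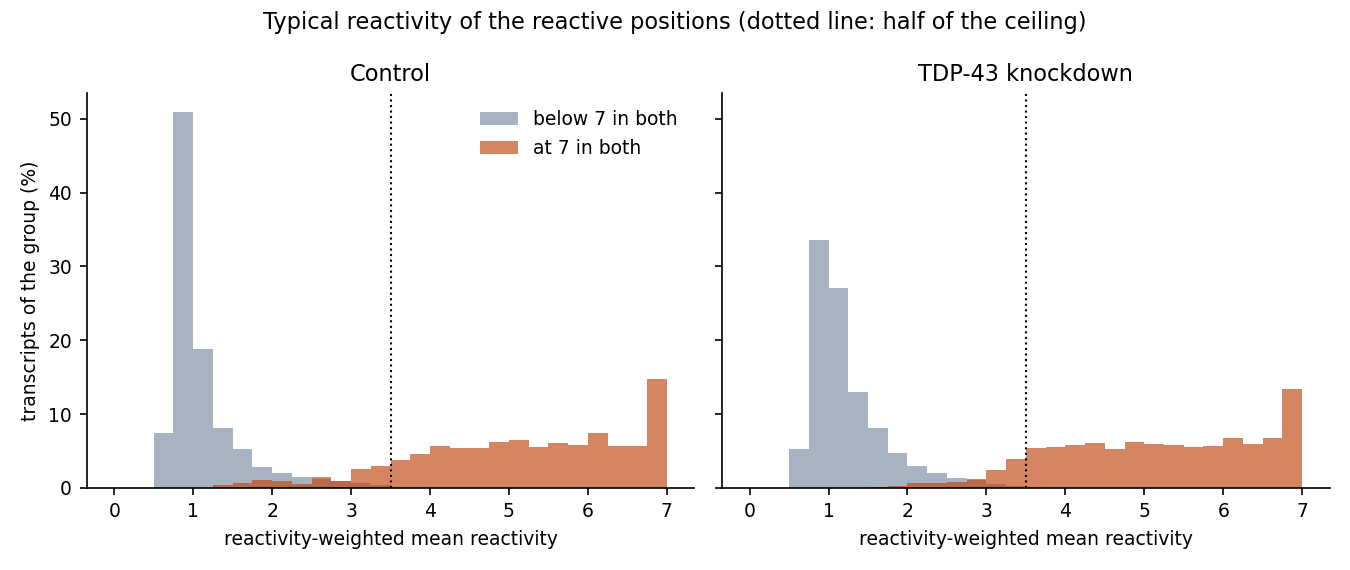
Distribution of the reactivity-weighted mean in bins of 0.25, as a percentage of the transcripts at 7 in both conditions and of those below 7 in both, in control (left) and knockdown (right). Transcripts below the ceiling centre near 1, and those at the ceiling spread from about 2 up to 7, with their highest bar in the last bin, which ends at 7.

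Along this scale the control average was lowest near the bottom, highest at 6 to under 6.5 and lower again above. In the 85 transcripts at the ceiling with a control weighted mean of 1 to under 2, the median average was 0.158 and the Gini index 0.898. In the 150 from 2 to under 3 they were 0.153 and 0.942. At 4 to under 5 (893 transcripts) they were 0.194 and 0.961, and at 6 to under 6.5 (514 transcripts) 0.220 and 0.967. At 6.9 to under 7 (213 transcripts) the average was back at 0.178 and the Gini index was 0.975. Of all transcripts at the ceiling, 95% had a control average at or below 0.220, and the highest had 0.301. The median knockdown average of the same transcripts was 0.162 in the lowest class, where it exceeded control, then 0.148, and 0.141 at 3 to under 4. It was 0.154 at 4 to under 5, 0.180 at 6 to under 6.5 and 0.146 at 6.9 to under 7. The weighted mean was similar in both conditions, with a Spearman correlation of 0.949 between control and knockdown over the 3936 transcripts, against 0.595 for the average.

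In some transcripts every reactive position stood at the ceiling. A weighted mean of exactly 7 is possible only if all positions are either at 0 or at 7. This was so for 149 transcripts in control, 140 in knockdown and 99 in both, all of them in the set at the ceiling in both conditions. Only transcripts at 7 in a condition can have such a mean there. Of these, 93.8% in control and 81.7% in knockdown belong to the set, so their place in it is mostly fixed by the choice. For these 99 the share of positions at 7 follows from the average. Their number also needs the number of positions, which was recovered as the smallest that fits, so the counts are least values. On these recovered numbers the median transcript had 29 such positions in control and 24 in knockdown, of 1344 positions. As a share of positions the control median was 2.22%, with a lowest value of 2.01%, a middle 50% of 2.11 to 2.34% and a highest of 3.01%. In knockdown the median was 1.81%, with a lowest value of 0.945%, a middle 50% of 1.55 to 2.08% and a highest of 4.55%. Fewer positions were at 7 in knockdown in 87 of the 99, more in 7 and as many in 5. In such transcripts this is the direction of the average and no separate result. The average was lower in 92.4% of all transcripts at the ceiling and in 19350 of the 38314 listed. Summed over the 99, 3799 recovered positions stood at 7 in control and 2977 in knockdown out of 172302. Isoforms that share exons count a position more than once there. The shares thus spread more widely in knockdown.

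Between the conditions, transcripts at the ceiling had lower average reactivity and were slightly more uneven after TDP-43 knockdown. On the deposited scales 294 of them had a higher average after knockdown, 3637 a lower one and 5 the same. The 294 are 7.48% of those that differed (95% Clopper-Pearson interval 6.68 to 8.35, for counting only), beside 49.5% of all transcripts. Among differences over 10% of the mean of both values the share was 2.22%. The SD was higher in 555, or 14.1% (13.0 to 15.2), beside 55.1% of all, and 2.95% with each table divided by its median SD. The median SD is a divisor of the SD alone, so the 2.95% is no check of a common scaling of average and SD. The Gini index was higher in 3777, or 96.1% (95.4 to 96.7), beside 63.8% of all. That direction was not particular to this set. It was found in 97.6% of the transcripts at 7 in knockdown alone, in 88.0% of those at 7 in control alone and in 91.2% of all transcripts of 5000 positions or more. For the transcripts at the ceiling in both conditions, the median ratio of knockdown over control average was 0.817, with the middle 50% between 0.756 and 0.883. The Gini index was higher by 0.00625 in the median, with the middle 50% between 0.00411 and 0.00914, in an index whose control median was already 0.964 and which cannot exceed 1. The coefficient of variation, the SD over the average, was higher in 3771, or 95.9%, beside 63.6% of all. The reactivity-weighted mean was higher in 1691 of the 3936, beside 65.2% of all, and its median ratio was 0.993. The median least share of positions carrying reactivity was 3.97% in control and 3.24% after knockdown, while the typical height of the signal was nearly equal. Both this least share and the coefficient of variation are fixed by the average and the weighted mean. With the weighted mean nearly equal, they largely restate the lower average and are no separate results. How far the higher Gini index goes beyond the lower average was not tested. Values at 7 cannot move upward, and how the scales of both tables relate is not stated.

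Large differences in average were few and mostly on the side of lower reactivity. Average reactivity was at least 1.5-fold lower in knockdown in 205 transcripts at the ceiling, or 5.21%, beside 2.39% of all. It was at least 1.5-fold higher in 9, or 0.229%, beside 15.1% of all. A lower average together with a higher Gini index was found in 3587 transcripts at the ceiling, 91.1%, beside 45.2% of all. Another 190 had a higher average and a higher Gini index (beside 18.6% of all). These were long, with a median of 4615.5 positions, and their control Gini index was 0.942. The 104 with a higher average and a lower Gini index (beside 30.9% of all) had a median of 1011.5 positions and a control weighted mean of 6.34. Only 50 had both values lower, beside 5.3% of all.

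**Figure D4:**
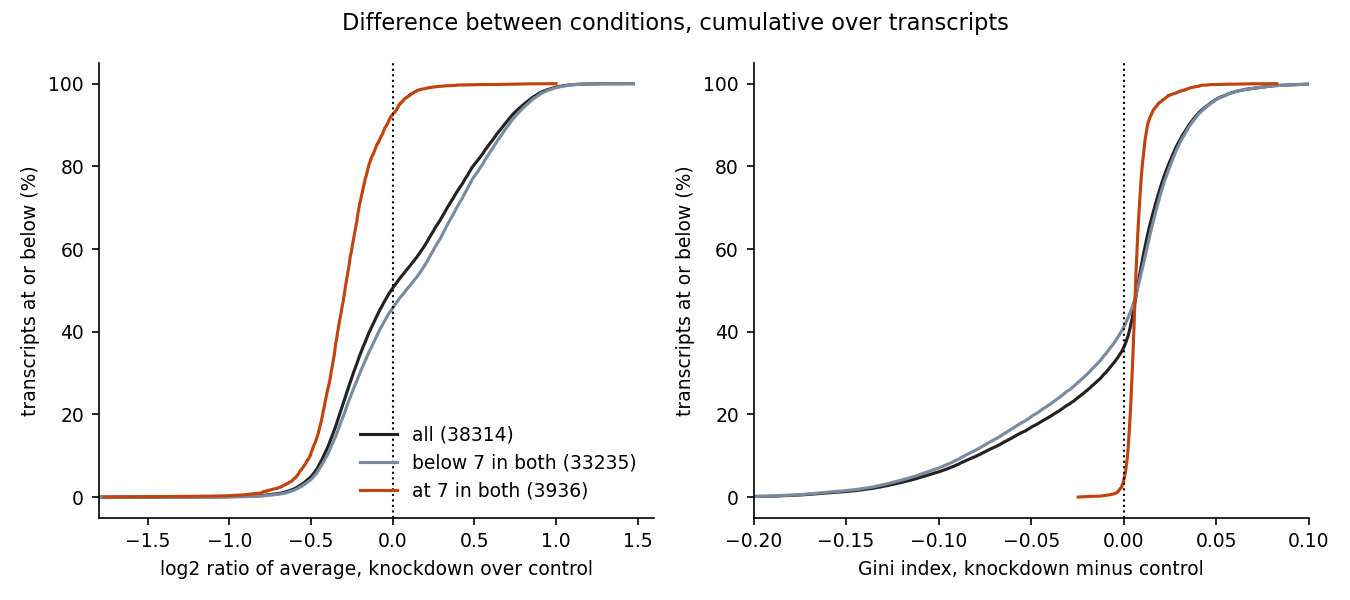
Cumulative share of transcripts by the log2 ratio of average reactivity, knockdown over control (left), and by the difference of the Gini index, knockdown minus control (right), for all 38314 transcripts, those below 7 in both conditions and those at 7 in both. The curve of the 3936 transcripts at the ceiling lies left of 0 for the average and in a narrow range just right of 0 for the Gini index.

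The difference between conditions also varied with level in opposite senses. Among transcripts at the ceiling, the share with a higher average in knockdown was 18.3% in the lowest of the 18 inner bins of control average and 1.02% in the highest. Among the others it was 33.5% and 72.6% in the same bins. For the Gini index, 92.9 to 99.0% of the transcripts at the ceiling were higher after knockdown in every inner bin, whereas among the others the share ran from 83.9% in the lowest to 30.0% in the highest. The control average enters both the bins and the difference. By control weighted mean, knockdown gave the higher average in 75.3% of the 85 transcripts at the ceiling under 2 and in 37.3% of the 150 from 2 to under 3. It did so in 3.11 to 7.38% of each class above, beside 49.5% of all transcripts and 54.3% of those below 7 in both. The other transcripts were not counted by these classes, so whether this course is particular to the ceiling was not tested.

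Long transcripts reached the ceiling more often. Of transcripts under 100 positions, 6 or 0.480% did so in both conditions. The share was 1.68% from 100 to under 200 positions, 2.20% up to 500, 4.51% up to 1000, 10.9% up to 2000, 20.1% up to 5000 and 22.2% at 5000 or more. The maximum is taken over all positions of a transcript, and the part of length in reaching 7 was not tested. Evenness itself varied little with length among the transcripts at the ceiling. Their median control Gini index was 0.966 from 200 to under 500 positions and 0.964 at 5000 or more, and the weighted mean was 5.81 and 4.99. In average reactivity, 4.10% of those from 2000 to under 5000 positions were higher in knockdown, beside 50.5% of all transcripts of that length. With 5000 positions or more 100 of the 556 were higher, beside 58.6% of all. Under 100 positions 5 of 6 were higher, beside 9.69% of all, and from 100 to under 200 positions 4 of 10, beside 18.2%. For the Gini index, 1 of the 6 under 100 positions was higher in knockdown, beside 61.9% of all transcripts of that length. From 100 to under 200 positions 4 of 10 were higher, beside 58.8%. Of those from 500 to under 1000 positions 91.7% were higher, beside 50.8% of all transcripts of that length. From 2000 to under 5000 positions the shares were 98.5% and 79.4%. At 5000 positions or more they were closer, at 97.3% and 91.2%.

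**Figure D5:**
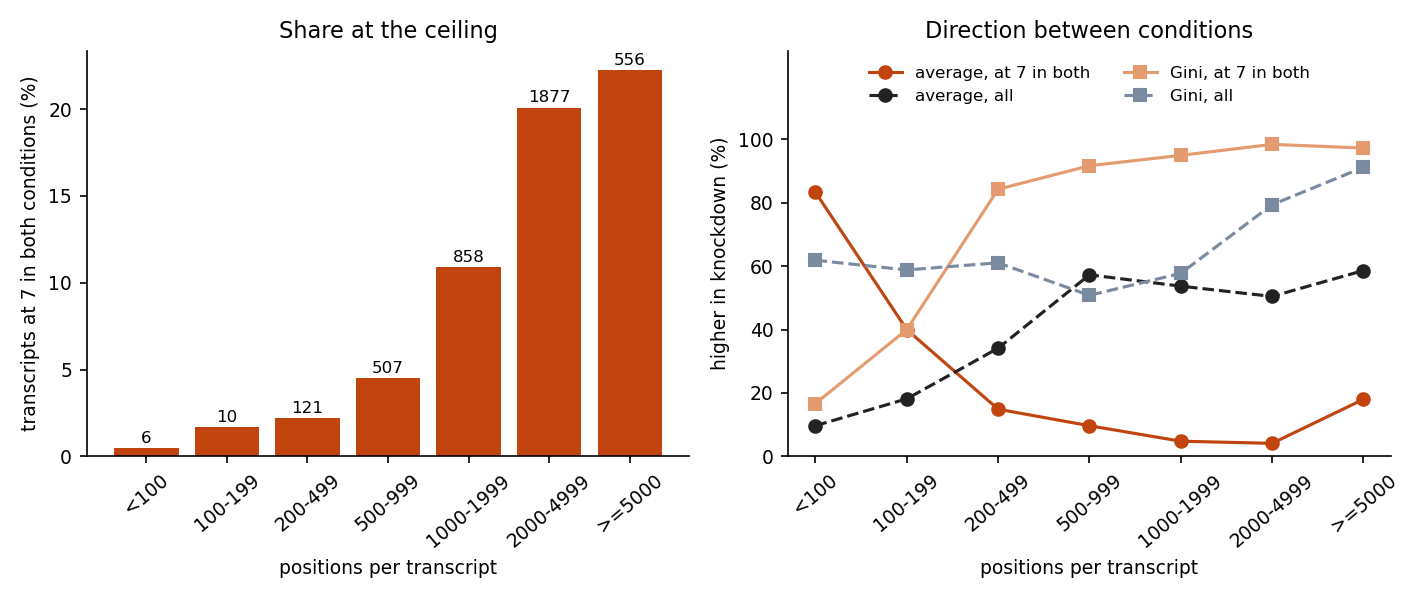
Share of transcripts at 7 in both conditions by number of positions, with their number over each bar (left), and share of transcripts higher in knockdown for average reactivity and Gini index, at the ceiling and over all transcripts (right). The share at the ceiling goes from 0.480% under 100 positions to 22.2% at 5000 or more. From 200 positions on the Gini index is higher after knockdown for over 80% of the transcripts at the ceiling. Over all transcripts of these lengths that share is 50.8 to 91.2%, highest at 5000 positions or more.

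Just outside the limit stood 63 transcripts with maxima from 6.5 to under 7 in both conditions. Their median control average was 0.166, their SD 0.709, their Gini index 0.953 and their weighted mean 3.21. In knockdown these medians were 0.134, 0.633, 0.960 and 3.17. Inside the limit all maxima equal 7, so closeness to it cannot be ranked. The 197 transcripts at the ceiling with the lowest control weighted means, at most 2.75, were taken instead. In control they had a median average of 0.152, an SD of 0.542 and a Gini index of 0.922. Their knockdown medians were 0.152, 0.628 and 0.943, and their median length was 5490 positions. The ranges of evenness inside and outside the limit thus overlapped, and some long transcripts touched 7 with most of their signal far lower. The 5 least uneven at the ceiling of at least 500 positions had control Gini indices of 0.747 to 0.834 over 4674 to 6862 positions.

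Transcripts at 7 in 1 condition only lay between the main sets in control Gini index and weighted mean, but not in average. The 259 at 7 in control alone had a median control Gini index of 0.955 and a weighted mean of 3.49, and a median control average of 0.171. Their average was higher in knockdown in 13, or 5.02%, beside 49.5% of all. The 884 at 7 in knockdown alone had a median control Gini index of 0.913, which was 0.940 in knockdown, a control weighted mean of 1.73 and a control average of 0.167. Of these, 616 or 69.7% had a higher average after knockdown. The Gini index was higher after knockdown in 228 of the 259, or 88.0%, and in 863 of the 884, or 97.6%, beside 63.8% of all. Both groups were chosen by a maximum that is higher in 1 condition, so their direction is not independent of the choice.

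Single transcripts show the 2 directions. Among the 3798 at the ceiling with at least 500 positions, ENST00000610164.1 had the largest decrease by difference of averages, from a control average of 0.220 to 0.0702 in knockdown, 3.13-fold lower over 4086 positions. Its Gini index went from 0.968 to 0.990 after knockdown. There its weighted mean was 7, so that 41 recovered positions stood at the ceiling and all others at 0. In control at most 124 of its recovered positions could be at 7. For ENST00000513929.6, of 1575 positions, the control average was 0.201 and the knockdown average 0.0590, 3.40-fold lower, with Gini indices of 0.965 and 0.991. The largest increase by difference was in ENST00000478546.1, whose control average of 0.190 compared with 0.348 after knockdown, 1.83-fold higher over 764 positions, and Gini indices of 0.973 and 0.949. At most 20 of its recovered positions could be at 7 in control and 34 in knockdown. For ENST00000548378.1, of 520 positions, the averages were 0.184 and 0.322. The Gini index was higher in knockdown in 10 of the 10 largest decreases and in 1 of the 10 largest increases. Beside these counts stand 96.1% of the transcripts at the ceiling and 63.8% of all. The 2 lists were picked by the difference of averages, so the direction of the Gini index in them is not independent of the choice. Those decreases were 1.90- to 3.40-fold and those increases 1.31- to 1.83-fold. In transcripts of this length the 5 highest control averages lay between 0.227 and 0.301, and 1 of these was higher in knockdown. The 5 highest control Gini indices, 0.980 in each, belonged to transcripts with every reactive position at 7 in both conditions.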

How the data were processed

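Summaries by transcript were deposited in 2 tables, for control and for knockdown. Reactivity is a score of unstated scale, and its maximum, average and SD are listed as the authors deposited them. The deposited Gini index is a fraction. Bowtie2 2.3.3.1, cutadapt 1.15 and the hg38 build are listed in the submitters' processing notes, without their settings. The calculation of reactivities and the origin of the limit of 7 were not stated. The word combined in the headers was taken to mean that replicates were pooled and NAI was set against DMSO.

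The 2 tables were joined on transcript. The number of positions was recovered as the smallest that makes the sum, the rank sum behind the Gini index and, where digits allow, the sum of squares whole in thousandths in both tables. It was found for 38313 transcripts and 3935 at the ceiling, and can be a divisor of the true number, which leaves shares of positions unaltered. Counts of positions are then too low. From these sums the summaries without the highest position were computed. This and the level matching were tested on simulated data. Bins needed at least 20 other transcripts. Calculations used scipy 1.17.1, numba 0.67.0, pandas 2.3.3 and numpy 2.4.6 under Python 3.11.15, with matplotlib 3.10.9 for the plots.

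The transcripts, classes and alternatives were chosen with earlier results of these data known. Transcripts named were the 2 largest increases and decreases of average by difference at 500 positions or more. Extremes of Gini index and average are given as ranges. Gene lists and sequences were not used, because identifiers could not be paired with genes.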

Additional observations from a re-analysis of the deposited data

How the results depend on the processing

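Of 42 alternative values for 5 results, 34 stayed close to the main one, which for shares means inside its interval and for level-matched differences within 10%. The difference in the Gini index (0.159) was 0.155 to 0.162 in these, but 0.128 in bins of the mean of both averages and 0.115 in bins of knockdown average. The difference in SD (0.569) was 0.551 to 0.618 under every alternative. The share with a higher average in knockdown (7.48%) became 10.1% after dividing each table by its median and 2.22% for differences over 10% of the mean of both values, and otherwise was 7.03 to 8.0%. The share with a higher SD (14.1%) became 2.95% with division by the median, 10.9% for differences over 10% and 12.7% without the lowest 25% of transcripts by level. Each measure was divided by its own median over all transcripts. For the average these were 0.190 in control and 0.185 in knockdown, and for the SD 0.381 and 0.451. The 10.1% and the 2.95% thus come from unlike divisors, and no single scaling of reactivities gives both. The share with a higher Gini index (96.1%) turned to 4.29% with division by the median, and otherwise was 95.8 to 96.7%. That turn is set by construction and bears on no scaling of reactivities, since a Gini index does not change with scale and the divisors, 0.837 in control and 0.855 in knockdown, shift every transcript alike. No transcript at the ceiling differed in the Gini index by over 10% of the mean of both values, so that alternative gave no value. Bins of width 0.005 and the 18 inner bins were chosen after seeing the data. Choosing 1 transcript per gene was not run, because identifiers have no gene names here. No paired analysis was possible because replicates are merged in the tables, and for the same reason none could be left out. The unknown depth limits all values.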
